A study of Homo sapiens with 2 samples.

Results

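Genes of the machinery that builds branched actin networks were examined in HSC-3 cells cultured on Myogel and on plastic. The group holds 34 genes, chosen by name from the subunits of the Arp2/3 complex, the WASP and WAVE activators, cortactin, the coronins, WHAMM and JMY, and the NCK adaptors. Of these, 31 had at least 1 probe set that is annotated to a single gene, out of 19775 such genes on the array, and ACTR2, ABI2 and WASF1 were not analysed here. HSC-3 is an established, aggressive line of squamous carcinoma of the tongue, and in both groups it carried red fluorescent protein (RFP) from lentiviral particles with a non-coding control sequence. Myogel is a protein extract of human uterine leiomyoma tissue. Cells were seeded on a Myogel coating or on uncoated plastic, 90000 to a well, and RNA was taken the next day. A protocol label names uncoated wells for both samples, whereas the title of the Myogel sample and the study's methods give the coating. The RNA of 3 wells was pooled for each surface and hybridised to 1 Affymetrix array, so the comparison has 1 array of Myogel cells and 1 array of plastic cells, with no replicate and no p-value.

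Actin filaments grow either as straight bundles or as branched sheets. The Arp2/3 complex makes the branches: it binds the side of an existing filament and starts a daughter filament there. By itself the complex is nearly inactive. N-WASP, which answers to the GTPase CDC42, and the WAVE proteins, which answer to RAC, bind it through a tail shared by their families and switch it on. Cortactin holds the branches in place and coronins help to take them apart. In carcinoma cells branched actin pushes out the lamellipodia of migrating cells and, with N-WASP and cortactin, the invadopodia with which cells degrade matrix.

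The values are linear intensities and range from 1, the floor of the table, upwards. The median over 54613 probe sets was 52.5 on the Myogel array and 59.7 on the plastic array, and the median log2 fold change (FC) of Myogel over plastic was -0.11 over probe sets and -0.07 over genes. Each gene was represented by its brightest probe set. As a measure of spread, each log2 FC was set beside the range of 95% of the log2 FCs of those 1000 probe sets whose signal was closest. This range describes the 2 arrays and is not a test. The intensities of different probe sets depend on their own probes, so the levels of different members are not compared. For each list of cell type markers, the gene with the highest mean log2 signal over both arrays is given to show how high the list reached. The controls for RNA length differed between the arrays, with a 3′ over 5′ ratio for ACTB of 6.10 on Myogel and 3.19 on plastic, and for GAPDH of 1.22 on Myogel and 1.10 on plastic. Of 15 probe sets for labelling controls, 13 were lower on Myogel, and their median log2 FC was -1.52. The part of these differences in the values below was not tested. Of the markers of squamous epithelium, KRT14 had the highest mean signal, with 18224 on Myogel and 18856 on plastic, and all 7 that were measured had values over 1000 on both arrays.

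Genes of the branched-actin machinery mostly had similar values on both surfaces by brightest probe set, with 23 of 31 within FC 1.2. Over all genes, dim ones passed a fold threshold more often than bright ones, so shares at like signal are given too. Of the 31 genes, 0 were higher and 1 was lower on Myogel by FC 1.5, the fold threshold that the study names, used here alone with no further filter, while 9.71% of all genes were higher and 17.5% were lower. The lower gene, CYFIP2, had dim values and no longer passed after quantile normalization, which also evened the split over all genes, to 2611 higher and 2565 lower in place of 1921 higher and 3469 lower. Of the 29 members at or above the median signal of 53.8, 0 passed FC 1.5 in either direction, beside 2.26% of genes of that signal that were higher and 4.83% that were lower. With FC 1.2 as the threshold, 2 of the 31 were higher (WASF2 and WAS) and 6 were lower (ABI1, CYFIP2, NCKAP1L, WIPF1, WIPF3 and CORO1A), and 23 stayed within it. Over all genes 18.1% were higher and 30.8% were lower by FC 1.2. At or above the median signal the members gave 2 higher and 4 lower of 29, beside 11.1% higher and 19.3% lower among genes of that signal.

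The median log2 FC of the members was -0.01, and 14 were above 0 and 17 below. Their median absolute log2 FC was 0.10, beside 0.25 over all genes. At or above the median signal these medians were 0.09 for the members and 0.16 for all genes. For the 18 members with a mean signal of 1000 or more, a limit chosen after the values were seen, the median was 0.05, beside 0.11 for all such genes, and the largest absolute log2 FC was the 0.37 of WASF2. In this range 0 of the 18 passed FC 1.5, beside 0.284% of genes that were higher and 0.371% that were lower. By FC 1.2, 1 of the 18 was higher and 1 was lower, close to the shares of such genes, 5.79% higher and 6.97% lower. In their brightest probe sets 0 of the 31 members lay outside the range for their signal, beside 3.49% of all genes.

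**Figure D1:**
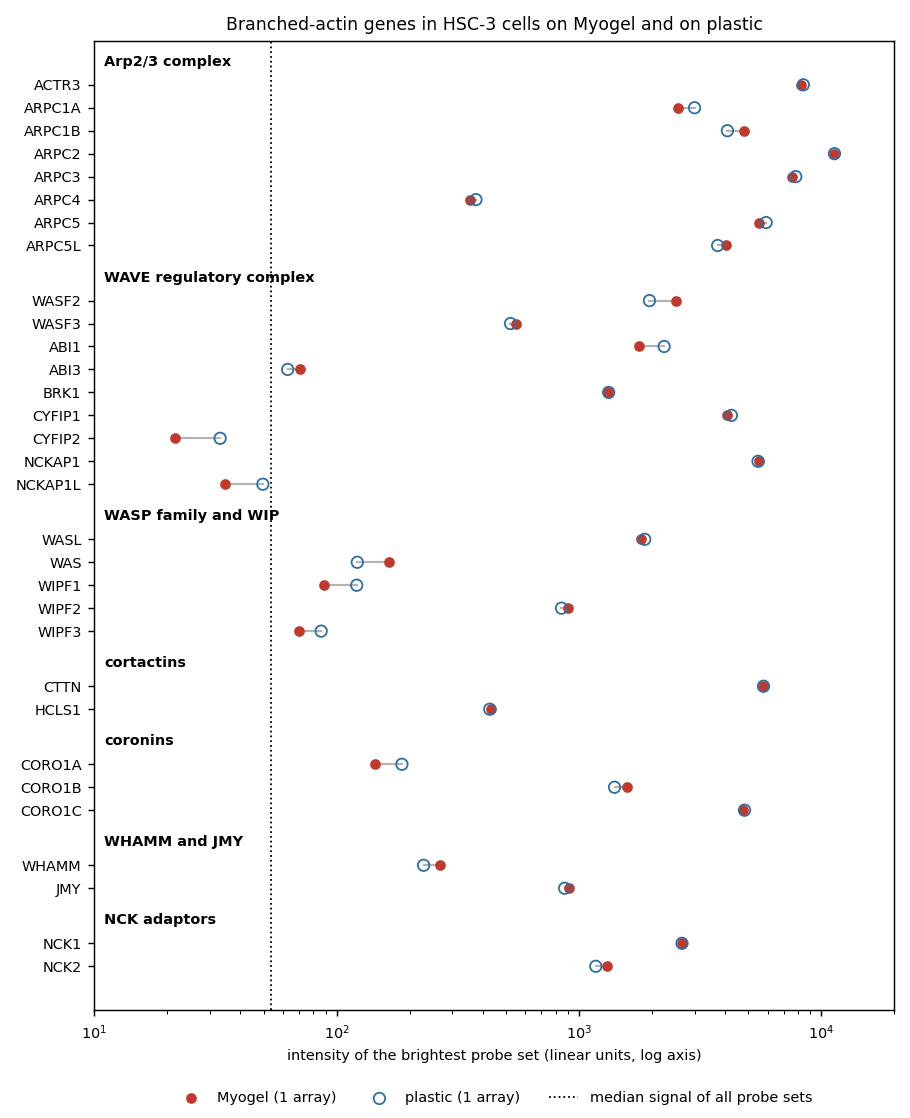
Intensity of the brightest probe set (x axis, linear units on a log scale) of the 31 members on the Myogel array (filled red points) and the plastic array (open blue circles), grouped by complex, with the median signal of all probe sets as a dotted line. The points of most genes overlap, and the widest gaps are at dim genes such as CYFIP2, with 21.6 on Myogel and 33.1 on plastic.

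The subunits of the Arp2/3 complex differed little between the surfaces. In their brightest probe sets all 8 measured subunits stayed within FC 1.2, and their median log2 FC was -0.04. At or above the median signal 11.1% of genes were higher and 19.3% were lower by FC 1.2. All of the 8 but ARPC4 had a mean signal of 1000 or more, where 5.79% of genes were higher and 6.97% were lower. ACTR3, which with ACTR2 forms the start of the new filament, had 8249 on Myogel and 8416 on plastic. ARPC2, which with ARPC4 forms the core that holds the mother filament, had 11317 on Myogel and 11318 on plastic. ARPC4 had 355 on Myogel and 376 on plastic, a log2 FC of -0.08. Some other probe sets went lower on Myogel, inside the ranges for their signal. The log2 FC was -0.22 for the dimmest ARPC2 set, with 8721 on Myogel and 10122 on plastic. It was -0.19 for the second ACTR3 set, with 5845 on Myogel and 6660 on plastic. For the second ARPC4 set it was -0.29, with 245 on Myogel and 299.6 on plastic. The second ARPC2 set went the other way, with 10131 on Myogel and 9764 on plastic, a log2 FC of 0.05. ARPC3, which bridges the core and ACTR3, had 7572 on Myogel and 7837 on plastic.

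The remaining subunits exist as pairs of alternative isoforms, and the values of each pair differed in opposite directions by small amounts. For ARPC5 the direction turned, to a log2 FC of 0.01, when the median log2 ratio of all probe sets was set to 0, which adds 0.11 to every gene. ARPC1B had 4801 on Myogel and 4094 on plastic, a log2 FC of 0.23. Its alternative ARPC1A had 2565 on Myogel and 2997 on plastic, a log2 FC of -0.22, so the isoforms differed by 0.45. Each has 1 probe set, and both values lay inside the ranges for their signal, -0.34 to 0.30 for ARPC1B and -0.37 to 0.36 for ARPC1A. ARPC5L had 4031 on Myogel and 3732 on plastic, and ARPC5 had 5527 on Myogel and 5915 on plastic, with log2 FCs of 0.11 and -0.10. In human cells complexes with ARPC1B and ARPC5L are known to be more active than those with ARPC1A and ARPC5. The 4 probe sets of ARPC5L were all higher on Myogel, with log2 FCs of 0.11, 0.33, 0.15 and 0.10. Those of ARPC5 did not share a direction, since its dimmer probe sets gave 0.12 and 0.43. With no replicate, differences of this size cannot be told from the spread between arrays.

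The WAVE regulatory complex holds a WAVE protein inactive until RAC binds. It joins a WAVE, an ABI, a CYFIP and an NCKAP protein with the small subunit BRK1. Of 9 measured genes 0 were higher and 1 was lower by FC 1.5, beside 9.71% higher and 17.5% lower over all genes. By FC 1.2, 1 was higher and 3 were lower, beside 18.1% higher and 30.8% lower over all genes. All but CYFIP2 and NCKAP1L, 7 of the 9, reached the median signal. Of these 7, 0 passed FC 1.5, beside 2.26% higher and 4.83% lower among genes of that signal. WASF2 was higher and ABI1 was lower by FC 1.2, beside 11.1% higher and 19.3% lower. The median log2 FC of the 9 was -0.01. The subunits that anchor the complex had like values on both surfaces in their brightest probe sets. NCKAP1, the scaffold, had 5503 on Myogel and 5478 on plastic, CYFIP1, which binds RAC, had 4082 on Myogel and 4252 on plastic, and BRK1 had 1313 on Myogel and 1325 on plastic. The dimmer sets of NCKAP1 and BRK1 differed more, with 70.7 on Myogel and 109 on plastic for NCKAP1, a log2 FC of -0.62, and 248 on Myogel and 205 on plastic for BRK1, a log2 FC of 0.28. Both lay inside the ranges for their signal, -1.07 to 0.93 and -0.75 to 0.61.

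By brightest probe set, WASF2 and ABI1 had the largest differences among the members with a mean signal of 1000 or more, and they went in opposite directions. WASF2, the WAVE protein that is known for lamellipodia and is expressed in most cells, had 2523 on Myogel and 1952 on plastic. It was 1.29-fold higher, with a log2 FC of 0.37 and a range of -0.41 to 0.38 for its signal. Its second probe set was also higher (2377 on Myogel, 2064 on plastic), while the dimmest had 1095 on Myogel and 1153 on plastic. ABI1, which links the WAVE protein to the rest of the complex and binds the kinase ABL1, was 1.27-fold lower, with 1767 on Myogel and 2244 on plastic. Its second probe set, of nearly the same signal, was 1.40-fold lower, with 1577 on Myogel and 2208 on plastic. The log2 FC of -0.49 of this probe set lay outside the range for its signal, -0.42 to 0.40. The third ABI1 probe set was at the floor on Myogel and had 2.11 on plastic. WASF3, a WAVE protein linked to invasion in several carcinomas, had 547 on Myogel and 521 on plastic.

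Other genes of the WAVE complex were dim. CYFIP2, the alternative of CYFIP1, known best from brain and lymphocytes, was 1.53-fold lower with 21.6 on Myogel and 33.1 on plastic. The 95% range for its signal reached from -1.98 to 1.87, and its other probe set was at the floor on Myogel with 2.60 on plastic. NCKAP1L, the form of NCKAP1 in blood cells, had 34.7 on Myogel and 49.6 on plastic, while its dimmer probe sets were higher on Myogel by log2 FCs of 0.65 and 1.12. ABI3 had 70.9 on Myogel and 62.8 on plastic. In these genes the spread of log2 FC at their signal exceeded the differences.

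**Figure D2:**
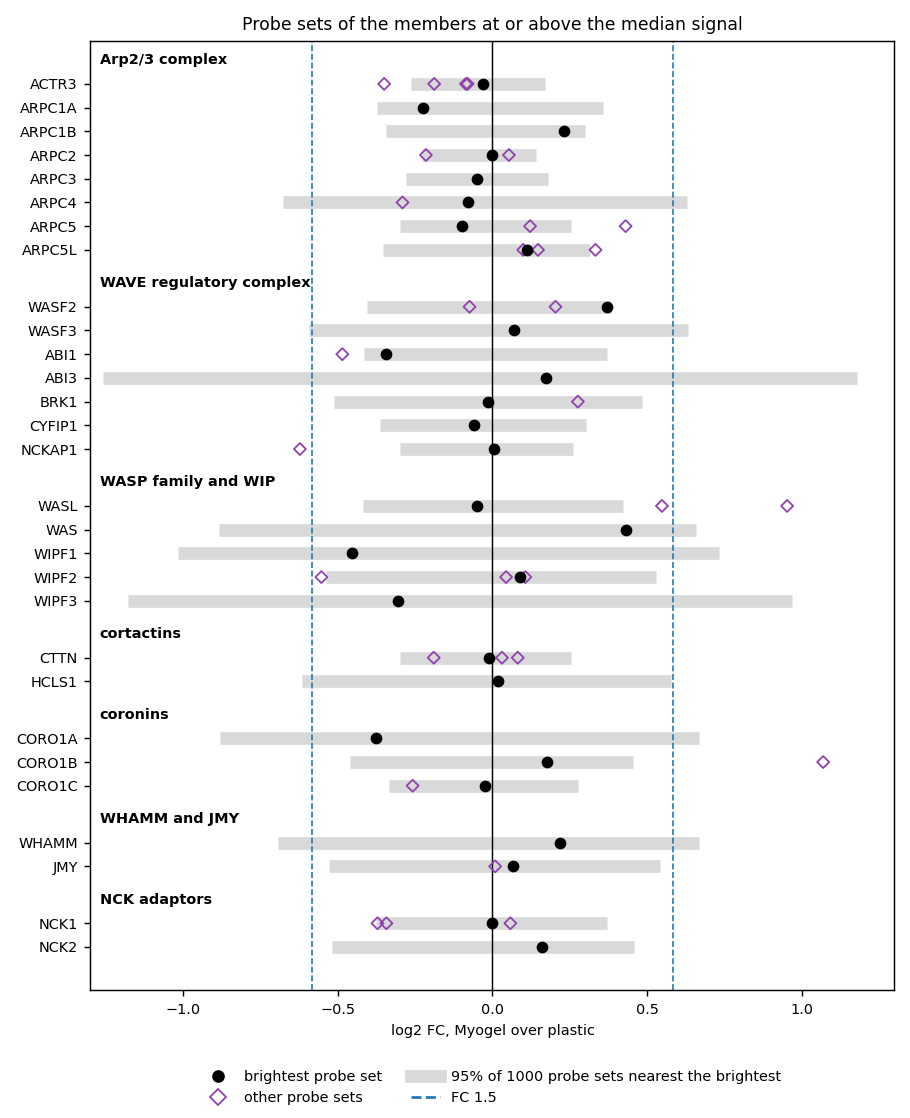
Log2 FC of Myogel over plastic (x axis) of each member probe set that reached the median signal, by gene and complex, with filled points for the brightest probe set and open diamonds for the others. Grey bars show the range of 95% of the 1000 probe sets nearest in signal to the brightest, so they do not apply to dimmer diamonds, and dashed lines mark FC 1.5. Filled points all lie inside the bars. Among the diamonds, 1 of WASL stands at 0.95 and 1 of CORO1B, of dim signal, at 1.07.

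WASL encodes N-WASP, the widely expressed member of the WASP family that links CDC42 and phosphoinositides to the Arp2/3 complex, and its probe sets disagreed. The brightest had 1804 on Myogel and 1866 on plastic, a log2 FC of -0.05. The second, an _s_at set of 1508 on Myogel and 779 on plastic, was 1.94-fold higher, and its log2 FC of 0.95 lay outside the range of -0.55 to 0.48 for its signal. The dimmer sets had 75.3 and 24.7 on Myogel against 51.5 and 20.8 on plastic, log2 FCs of 0.55 and 0.25 that lay inside their wide ranges. So 1 bright probe set was level and another of comparable signal was higher on Myogel. The suffix _s_at marks a set whose probes match several transcripts. It is also carried by, among others, the brightest sets of ACTR3, ARPC2, ARPC5, ABI1, NCKAP1 and NCK1. Where on the WASL transcripts each set lies is not given in the files used, and neither a difference between transcripts nor one of RNA length or labelling was tested.

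Among the 75 probe sets of the members, the second WASL set was the only one past FC 1.5 whose values also differed by 100 linear units or more. Counting a gene when any of its probe sets met these limits, 1 of the 31 members was called, beside 3.34% of all genes. Of the 75 probe sets, 4 were higher and 7 were lower by FC 1.5, beside 12.3% higher and 21.8% lower over all probe sets with 1 gene symbol. Of the 60 at or above the median signal 3 passed, beside 10.5% of all such probe sets. The 3 were those of WASL and NCKAP1 given above and the second probe set of CORO1B. Of the 33 probe sets with a mean signal of 1000 or more, 1 passed FC 1.5, beside 1.36% of all such probe sets. Outside their ranges lay 2, those of WASL and ABI1, beside 4.61%.

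**Figure D3:**
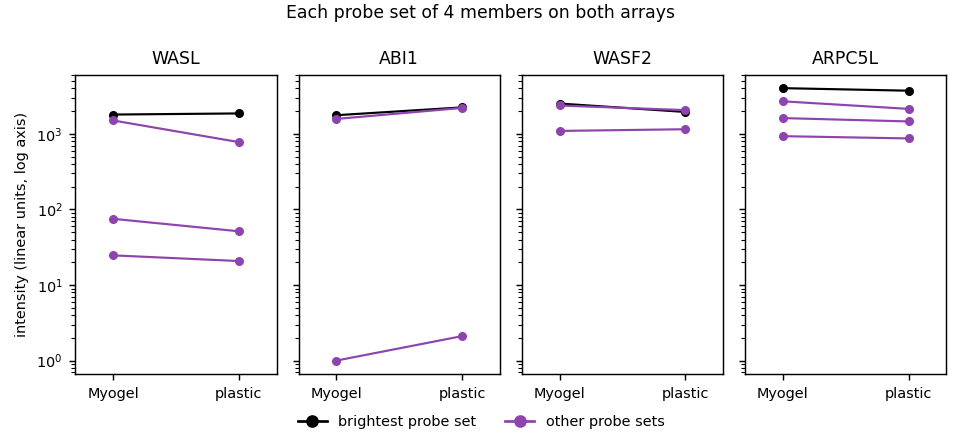
Intensity (y axis, linear units on a log scale) of every probe set of WASL, ABI1, WASF2 and ARPC5L on the Myogel array and the plastic array, with a line joining the 2 values of a probe set. The black lines are the brightest probe sets. The second WASL line is the steepest of the bright ones, with 1508 on Myogel and 779 on plastic, while both bright ABI1 lines are lower on Myogel.

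The other genes of the WASP family and of WIP, the partner that stabilises WASP proteins, were mostly dim. WAS, the form of blood cells, had 164 on Myogel and 122 on plastic in its brightest probe set and 10.9 on Myogel and 12.4 on plastic in the other. WIPF2, a WIP protein of many tissues, had 900.0 on Myogel and 847 on plastic, and its next probe sets gave log2 FCs of 0.11 and 0.04, while its dimmest gave -0.55. WIPF1, the WIP gene itself, had 88.3 on Myogel and 121 on plastic. Its next probe sets had 8.69 and 5.20 on Myogel against 34.7 and 25.9 on plastic, log2 FCs of -2.00 and -2.31, and the dimmest was near or at the floor on both arrays. All of these WIPF1 values lay inside the ranges for their signal. WIPF3 had 69.9 on Myogel and 86.4 on plastic, and its dimmest probe set had 1.63 on Myogel and 6.48 on plastic. The 5 measured genes of this group all reached the median signal, and their median log2 FC was -0.05. By FC 1.5, 0 passed, beside 2.26% higher and 4.83% lower among genes of that signal. By FC 1.2, 1 was higher and 2 were lower, beside 11.1% and 19.3%. Of their 18 probe sets, 1 was higher and 3 were lower by FC 1.5, beside 12.3% and 21.8% over all probe sets with 1 gene symbol.

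Cortactin had nearly the same value on both surfaces. CTTN, which binds the Arp2/3 complex and stabilises branches and is often amplified in head and neck carcinomas, had 5721 on Myogel and 5768 on plastic, a log2 FC of -0.01. Its next probe sets had 1403 and 1007 on Myogel against 1325 and 1149 on plastic, which is 0.08 and -0.19 on the log2 scale. HCLS1, the cortactin of blood cells, had 434 on Myogel and 428 on plastic from 1 probe set.

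The coronins, which help to remove the Arp2/3 complex from old branches, did not move together. CORO1C had 4739 on Myogel and 4818 on plastic, a log2 FC of -0.02, and its second probe set had 3689 on Myogel and 4411 on plastic, a log2 FC of -0.26. CORO1B, which acts against cortactin at branches, had 1583 on Myogel and 1401 on plastic, a log2 FC of 0.18. Its second probe set had 81.9 on Myogel and 39.0 on plastic, a log2 FC of 1.07 inside the range of -1.29 to 1.12 for its signal. CORO1A, the coronin of blood cells, had 143 on Myogel and 186 on plastic.

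WHAMM and JMY, which switch on the Arp2/3 complex at membranes inside the cell, had slightly higher values on Myogel, within FC 1.2. WHAMM had 266 on Myogel and 228 on plastic, and JMY had 913 on Myogel and 872 on plastic. The NCK adaptors carry receptor signals to N-WASP and to the WAVE complex. NCK1 had 2659.69 on Myogel and 2659.35 on plastic, and its dimmer probe sets gave log2 FCs of -0.34, 0.06 and -0.37. NCK2 had 1309.7 on Myogel and 1172.5 on plastic, a log2 FC of 0.16. None of the 4 genes passed FC 1.2 in its brightest probe set.

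**Figure D4:**
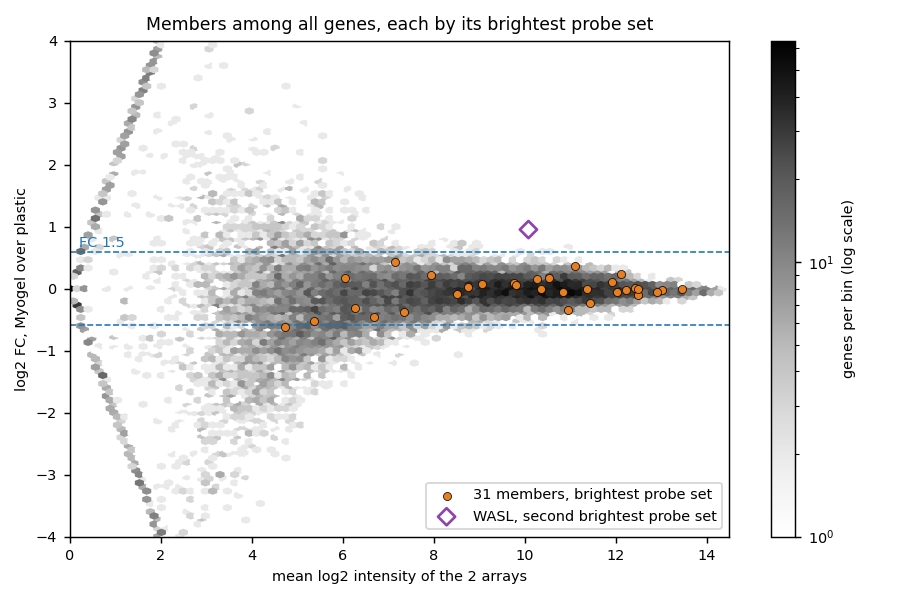
All genes by mean log2 intensity of the 2 arrays (x axis) and by log2 FC, Myogel over plastic (y axis), with darker grey for more genes per bin, and the 31 members as orange points. The members lie within the band of genes of their signal, and the second brightest WASL probe set, drawn as an open diamond at 0.95, lies above it.

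Probe sets of the same gene often differed in direction, in the members and over all genes. In 16 members the 2 brightest probe sets both reached the median signal, and their log2 FCs shared a sign in 9, or 56.2%, beside 56.6% of 5953 genes. Their median absolute difference was 0.22 for the members and 0.23 for all genes, and it was largest for WASL, at 1.00. Of 21 members with more than 1 probe set, all sets were higher in 3 (ARPC5L, CORO1B and JMY), all were lower in 5 (ABI1, ACTR3, ARPC4, CORO1C and CYFIP2), and 13 went both ways. Among 10523 such genes all sets were higher in 10.4% and lower in 26.4%.

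Several members are known mainly from blood cells, so leukocyte markers were set beside them. The 11 measured leukocyte markers had values from 1.00 to 70.3 on Myogel and from 4.81 to 116 on plastic, with sums of 384 on Myogel and 438 on plastic. Only HSC-3 cells were seeded, and in bulk RNA fewer cells of a type and less RNA per cell cannot be told apart. TYROBP was at the floor on Myogel, and PTPRC, the pan-leukocyte marker, had 21.0 on Myogel and 27.2 on plastic. CD3E, with the highest mean signal of them, had 63.4 on Myogel and 116 on plastic. The list had no common direction, since 4 were higher and 4 were lower on Myogel by FC 1.2, beside 18.1% higher and 30.8% lower over all genes. Among those higher, CD53 had 70.3 on Myogel and 55.6 on plastic. Of the 11 markers, 8 were below the median signal. Whether the blood-cell members were detected as true transcripts was not tested. The 9 smooth muscle markers, set here because Myogel comes from a smooth muscle tumour, summed to 1574 on Myogel and 1569 on plastic. ACTA2, with the highest mean signal, made up a large part of this sum, with 756 on Myogel and 703 on plastic. By FC 1.5, 1 was higher (LMOD1) and 2 were lower (CNN1 and SMTN). Among 8 fibroblast markers COL1A1, with the highest mean signal, had 454 on Myogel and 431 on plastic. The fibroblast list summed to 847 on Myogel and 942 on plastic, and by FC 1.5, 1 was higher (COL1A2) and 1 was lower (FAP). Over all genes 9.71% were higher and 17.5% were lower by FC 1.5.

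Genes that act before and after the Arp2/3 complex were described from a list of 58, of which 54 were measured. By FC 1.5, 3 were higher and 3 were lower, beside 9.71% higher and 17.5% lower over all genes, and the median log2 FC was -0.02. Of the 49 at or above the median signal 0 were higher and 2 were lower, beside 2.26% and 4.83% of genes of that signal. Among GTPases and their exchange factors RAC1 had 7626 on Myogel and 8005 on plastic in its brightest probe set. RAC3, which differed most by brightest set among those that reached the median signal, had 286 on Myogel and 408 on plastic. CDC42 had 5740 on Myogel and 5881 on plastic in its brightest set. A dimmer CDC42 set had 2109 on Myogel and 3058 on plastic, a log2 FC of -0.54 outside the range of -0.39 to 0.38. A dimmer ARF6 set and a dimmer RAC2 set were also lower and outside their ranges, with log2 FCs of -0.58 and -1.12. The other sets of CDC42, ARF6 and RAC2 lay inside their ranges and did not share a direction. The 2 genes of this list past FC 1.5 in their brightest sets were dim and are named after their values were seen. ELMO1 had 10.9 on Myogel and 3.28 on plastic, and PREX1 had 53.3 on Myogel and 34.1 on plastic. Among kinases, adaptors and membrane-bending partners, PIP5K1C, which makes the phosphoinositide that N-WASP binds, had 214 on Myogel and 289 on plastic. BAIAP2L2, likewise named after its values were seen, had 95.03 on Myogel and 27.8 on plastic, outside the range of -1.42 to 1.35 for its signal with a log2 FC of 1.77. The 4 measured genes of the WASH complex, which activates the Arp2/3 complex on endosomes, all stayed within FC 1.2, with WASHC4 at 2129 on Myogel and 1852 on plastic. Their mean signals were all over 1000, where 5.79% of genes were higher and 6.97% were lower by FC 1.2.

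The 7 inhibitors and branch removers had no common direction, and their median log2 FC was 0.07. By FC 1.2, 2 were higher and 2 were lower on Myogel, beside 18.1% higher and 30.8% lower over all genes. Of the 7, 6 reached the median signal, where 11.1% of genes were higher and 19.3% were lower by FC 1.2. ARPIN, which competes with WAVE for the Arp2/3 complex, was 1.59-fold lower, with 242 on Myogel and 385 on plastic. The log2 FC of -0.67 lay inside the range of -0.70 to 0.59 for its signal, and its second probe set went the other way, with 78.7 on Myogel and 38.4 on plastic. Among 8 genes of capping and actin, CAPG, which caps the growing ends of filaments, was 1.53-fold lower, with 1046 on Myogel and 1601 on plastic. Its log2 FC of -0.61 lay outside the range of -0.52 to 0.47, and it has 1 probe set. The third lower gene, CARMIL2, was dim, with 21.1 on Myogel and 33.5 on plastic. The subunits of the main capping protein stayed within FC 1.2 in their brightest probe sets and did not share a direction. CAPZA1 had 10374 on Myogel and 10203 on plastic, CAPZA2 had 4742 on Myogel and 5250.5 on plastic, and CAPZB had 3009.6 on Myogel and 2644 on plastic. The second CAPZB set, of nearly the same signal, had 2947 on Myogel and 2064 on plastic. Its log2 FC of 0.51 lay outside the range of -0.39 to 0.38. The third CAPZB set was lower, with 798 on Myogel and 931 on plastic. TWF1, of the same list, had 5654 on Myogel and 5389 on plastic in its brightest set. Its second, an _s_at set, had 628 on Myogel and 325 on plastic. That log2 FC of 0.95 lay outside the range of -0.63 to 0.62. ACTB, the actin of the networks themselves, had 11891 on Myogel and 12266 on plastic.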

How the data were processed

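For each surface, 1 µg of RNA pooled from 3 wells was hybridised to a U133 Plus 2.0 array (Affymetrix) after labelling from the 3′ end (IVT Express). Samples were grouped by their titles. The deposited values are linear intensities that come from dChip, run by the authors. For its version, model and normalization, the sources used here give nothing.

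FC was computed as Myogel over plastic without further scaling. Of 54613 probe sets, 41091 have 1 gene symbol, 1801 have more than 1 and were left out of gene counts, and 11721 have no name here. Symbols were updated by Entrez identifier through RefSeq genes of GRCh38.p14. The probe set of highest mean log2 value stood for its gene. All 31 measured members were named, with other probe sets that passed FC 1.5 in the opposite direction or differed by more than 1 on the log2 scale, and, of each list of further genes, the gene that differed most among those reaching the median signal, and the brightest marker of each cell type. Other names were added after their values were seen. The members and lists were chosen with earlier results of these data known. Alternatives were quantile normalization, loess centring (span 0.3), centring on the median, offsets of 16 and 50, a signal filter, other choices of probe set and other thresholds. Precision is limited by the number of arrays. Computations used pandas 2.3.3, numpy 2.4.6 and statsmodels 0.14.6 under Python 3.11.15, were tested on simulated data, and were plotted with matplotlib 3.10.9. Protein identity between paralogs was not analysed here.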

Additional observations from a re-analysis of the deposited data

How the results depend on the processing

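No paired analysis was possible because each surface has 1 array, and for the same reason no array could be left out. The count of 1 member past FC 1.5 became 0 after quantile normalization, loess centring, setting the median log2 ratio to 0 or adding an offset of 16 or 50, and 0 with the filter on signal, with FC 2 or with a difference of 100 linear units. It was 2 (both lower) without the _x_at, _s_at and _a_at sets, where NCKAP1 and WIPF1 passed, 5 (1 higher, 4 lower) with the mean over probe sets, 6 of 21 (3 higher, 3 lower) with the second brightest probe set, and 8 with FC 1.2. Over all genes these choices of probe set gave 11.2% higher and 20.7% lower, 11.6% higher and 21.4% lower, and 12.4% higher and 22.6% lower. Apart from the looser or stricter thresholds, the cause was not tested. With the median log2 ratio set to 0, the median log2 FC was 0.095 for all members, 0.067 for the Arp2/3 complex and 0.093 for the WAVE complex. With the second brightest probe set it was -0.14 for the WAVE complex. Other medians moved by less than 0.1. With the median log2 ratio set to 0, 10 members changed sign, with quantile normalization 5 and with loess 4, and the largest log2 FC among them was 0.10 in size without scaling. WASL had a log2 FC of -0.05 in its brightest set, 0.43 as a mean over sets and 0.95 in the second. After quantile normalization 2611 genes were higher and 2565 lower by FC 1.5, after loess centring 2634 and 2542, and with the median ratio at 0, 2229 and 2998, against 1921 higher and 3469 lower without scaling.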
